A study of Homo sapiens with 8 samples.

Results

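Small nucleolar RNA (snoRNA) host genes carry snoRNAs in their introns, and those described here are long noncoding RNA genes. The 10 host genes described here are SNHG1, SNHG5, SNHG6, SNHG8, SNHG12, SNHG15, SNHG16, SNHG29, GAS5 and ZFAS1, out of 62635 genes in the short-read table. They were chosen by name. A short-read gene took a GENCODE name when it lay on the same strand and shared at least 0.5 of the combined span (the Jaccard index), and this rule named 8 of the 10. The rows for SNHG6 and SNHG16 had indices of 0.239 and 0.067 and were named only by holding the most annotated transcript starts of the gene, so their values are given but kept out of the counts unless stated. All 10 hosts had at least 1 isoform above 0 in the long-read table, 65 isoforms out of 301869 transcripts.

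RNA came from HAP1, a near-haploid human cell line derived from a chronic myeloid leukemia, with no treatment or genetic change named in the labels. Nuclei were washed in a buffer of urea (0.5 M) and a mild detergent (NP-40 substitute, 0.5%) and spun, which left a chromatin pellet and a nucleoplasm supernatant. Short-read libraries of chromatin and of nucleoplasm (3 each, from 3 cultures) kept strand information. Chromatin RNA was also sequenced as long direct cDNA reads in 2 libraries, with no nucleoplasm partner. The fraction was taken from the sample titles, since another label field names chromatin for every library.

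In a noncoding snoRNA host, the spliced exons form the noncoding RNA. Each snoRNA is cut out of a removed intron, trimmed by exonucleases and packed with core proteins into a snoRNP. Box C/D snoRNAs guide methylation of ribosomal RNA and box H/ACA snoRNAs guide pseudouridylation. Several spliced host RNAs are known targets of nonsense-mediated decay in the cytoplasm, and many of these genes start with a run of pyrimidines, as ribosomal protein genes do.

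The short-read values are read counts per gene divided by a size factor per library, here called normalized counts. Recovered reads, the whole-number gene counts before that division, ran from 38895027 to 43804918 in chromatin and from 75737601 to 79523938 in nucleoplasm. Each host row held between 658 and 48527 such reads in a library. The fraction labels were checked with MALAT1 and PVT1, RNAs known to stay on chromatin, which were higher in chromatin by 3.09 and 3.11 on the log2 scale. GAPDH and B2M, protein-coding controls, were at -2.35 and -2.11. BCR and ABL1, the genes fused in the parent leukemia, were at 739 and 925 normalized counts on average in chromatin, whereas the blood lineage markers PTPRC, SPI1 and GATA1 were listed at 0 in all 6 libraries and CD34 averaged 1.57 in chromatin. KIT, another blood lineage marker, averaged 1533, VIM, a mesenchymal marker, 4212, CDX2, a gut marker, 165 and EPCAM, an epithelial marker, 59.8, while ALB and MYH6 were listed at 0.

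The first question was in which nuclear fraction each host RNA was found. The 10 hosts spread over both fractions: SNHG12, SNHG15, SNHG5, SNHG1, GAS5 and ZFAS1 were higher in chromatin, SNHG16 and SNHG29 were higher in nucleoplasm, SNHG6 was at the limit of the test on the nucleoplasm side, and SNHG8 did not pass the test. SNHG12 differed most, by 6.34-fold. Fold changes are chromatin over nucleoplasm on log2(normalized count + 1), tested with limma over 26066 genes with Benjamini-Hochberg adjustment. Genes past 4-fold at an adjusted p under 0.05 are described as called.

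**Figure D1:**
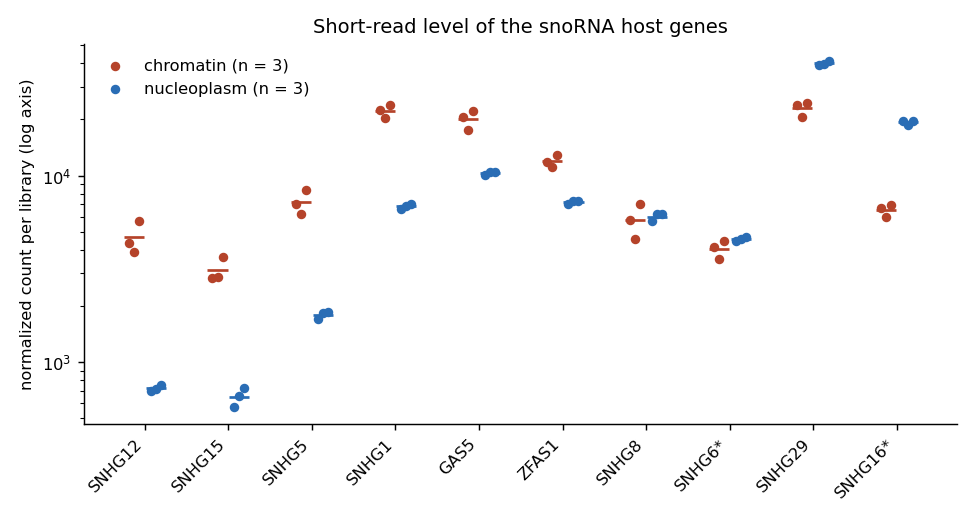
Normalized count of each snoRNA host gene in each short-read library on a log axis; points are libraries, bars are means over 3 libraries per fraction, and an asterisk marks a row named by position. The fractions overlap for SNHG8 and are apart for the other 9 hosts, with SNHG12 at a mean of 4659 in chromatin and 724 in nucleoplasm.

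Of the 8 hosts named by the span rule, 2 were called in chromatin, where 21.2% of all tested genes were called. SNHG12, host of 4 snoRNAs, had 4369, 3874 and 5734 normalized counts in chromatin and 699, 720 and 754 in nucleoplasm. Every chromatin library lay above every nucleoplasm library, and the log2 fold change was 2.66 (SE 0.13, adjusted p = 1.2e-07 in limma). SNHG15, host of the H/ACA snoRNA SNORA9, had 2822, 2846 and 3675 in chromatin and 577, 660 and 723 in nucleoplasm. The fractions did not overlap here either, and the log2 fold change was 2.25 (SE 0.12, adjusted p = 2.2e-07 in limma).

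SNHG5, host of SNORD50A and SNORD50B, lay at the fold limit. It had 7050, 6240 and 8341 normalized counts in chromatin and 1701, 1823 and 1860 in nucleoplasm. The libraries did not overlap, and the log2 fold change was 1.997 (SE 0.10, adjusted p = 1.4e-07 in limma), just under 2. SNHG5 was past the limit with edgeR, with DESeq2 and with TMM factors. Each called 3 hosts, beside 21.8% of all tested genes by edgeR and 22.4% by DESeq2. The share with TMM factors is not reported here. SNHG5 was also past the limit in 4 of the 6 fits that left out 1 library. The exceptions were without chromatin replicate 3, at 1.89, and without nucleoplasm replicate 1, at 1.96.

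SNHG1, host of 9 annotated snoRNAs, and GAS5, host of 11, were the hosts of the most snoRNAs. SNHG1 had 22532, 20284 and 23755 normalized counts in chromatin and 6635, 6848 and 7082 in nucleoplasm, 1.69 higher in chromatin on the log2 scale (SE 0.06, adjusted p = 3.6e-08 in limma). GAS5, a transcript named for its rise in growth-arrested cells, had 20539, 17617 and 22178 in chromatin and 10127, 10416 and 10496 in nucleoplasm. The fractions did not overlap for either gene, and the log2 fold change of GAS5 was 0.95 (SE 0.08, adjusted p = 4.7e-06 in limma). ZFAS1, host of the 3 SNORD12 snoRNAs, had 11799, 11105 and 12903 in chromatin and 7000, 7298 and 7264 in nucleoplasm. Its libraries did not overlap, and the log2 difference was 0.73 (SE 0.06, adjusted p = 4.1e-06 in limma). With these, 6 of the 8 hosts were higher in chromatin at any fold, beside 44.2% of all tested genes. Past 2-fold there were 4 (SNHG12, SNHG15, SNHG5 and SNHG1), beside 32.2% of all tested genes.

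SNHG8, host of SNORA24, had 5779, 4543 and 7061 normalized counts in chromatin and 5684, 6190 and 6208 in nucleoplasm. The 3 nucleoplasm values lay inside the chromatin range, and the log2 fold change of -0.08 (SE 0.14, adjusted p = 0.60 in limma) did not pass the test. SNHG29, host of SNORD49A, SNORD49B and SNORD65, had 23792, 20684 and 24512 in chromatin and 39301, 39656 and 40998 in nucleoplasm. All 3 nucleoplasm libraries lay above chromatin, with a log2 fold change of -0.80 (SE 0.07, adjusted p = 5.6e-06 in limma). SNHG29 was the 1 host of the 8 that was higher in nucleoplasm at any fold, beside 45.2% of all tested genes.

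The 2 rows named by position were both at lower levels in chromatin. The SNHG16 row covered 7585 bases at the 5′ part of a gene annotated over 113259 bases, and its 3 snoRNAs, SNORD1A, SNORD1B and SNORD1C, lie in that part. It had 6713, 6001 and 6991 normalized counts in chromatin and 19667, 18749 and 19579 in nucleoplasm. The nucleoplasm libraries were all higher, and the log2 fold change was -1.56 (SE 0.06, adjusted p = 4.7e-08 in limma). The SNHG6 row covered 24438 bases, beyond the 5838 bases annotated for the gene, and had 4115, 3579 and 4432 in chromatin and 4444, 4578 and 4708 in nucleoplasm. The highest chromatin and the lowest nucleoplasm library were nearly equal, and the log2 fold change of -0.18 (SE 0.08, adjusted p = 0.047 in limma) stayed under the p limit in 1 of the 6 fits without a library. For SNHG6 the adjusted p was 0.074 by edgeR and 0.31 by DESeq2. Adding both rows brought the hosts higher in nucleoplasm to 3 by limma, a count that rests on SNHG6 at the p limit. No host was called past 4-fold in nucleoplasm, where 8.47% of all tested genes were called: the count was 0 by limma, 0 at an unadjusted p under 0.05 with the same fold, 0 by edgeR (beside 8.31% of all tested genes) and 0 by DESeq2 (beside 7.52%).

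Over the 10 hosts, 6 had all chromatin libraries above all nucleoplasm libraries and 3 had them below. Of all tested genes, 44.6% had them above and 46.0% below, 90.6% together. Chromatin replicate 3 was the highest chromatin library for all 10 hosts, and chromatin replicate 2 was the lowest for 9. When the hosts were ordered by fold change, the range over all pairs of a chromatin and a nucleoplasm library overlapped between the neighbours SNHG12 and SNHG15, SNHG15 and SNHG5, SNHG5 and SNHG1, GAS5 and ZFAS1, and SNHG8 and SNHG6. It did not overlap between SNHG1 and GAS5, ZFAS1 and SNHG8, SNHG6 and SNHG29, or SNHG29 and SNHG16.

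The directions depended on how the libraries were scaled. The median log2 fold change of the 8 hosts was 1.32 and that of all tested genes -0.02. When each library was set to the same total of ERCC standards, the synthetic RNAs added in equal volume to each fraction before extraction, both moved, to -0.0018 for the hosts and -1.33 for all tested genes. When each library was set to the same total count, they were 1.79 and 0.44. Relative to the median of all tested genes the hosts lay 1.34, 1.33 and 1.35 higher under the 3 scalings, which by their construction shift all genes together. At the same ERCC total, SNHG12 (1.34), SNHG15 (0.92) and SNHG5 (0.67) were the 3 hosts still higher in chromatin at an adjusted p under 0.05, beside 22.7% of all tested genes. ZFAS1 (-0.59), SNHG8 (-1.40) and SNHG29 (-2.13) were the 3 then higher in nucleoplasm, beside 64.8%, and GAS5 was at -0.37. The limma fit at that scaling called 0 hosts past 4-fold in chromatin, beside 11.9% of all tested genes, and called SNHG29 in nucleoplasm, beside 34.4%. SNHG1 was then at 0.37 (limma adjusted p = 0.070). The SNHG16 row was then at -2.88, past 4-fold in nucleoplasm, and the SNHG6 row at -1.51, both outside these counts. At the same total, 4 hosts were called in chromatin, beside 25.6% of all tested genes, and SNHG8 was at 0.39 and SNHG6 at 0.28.

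**Figure D2:**
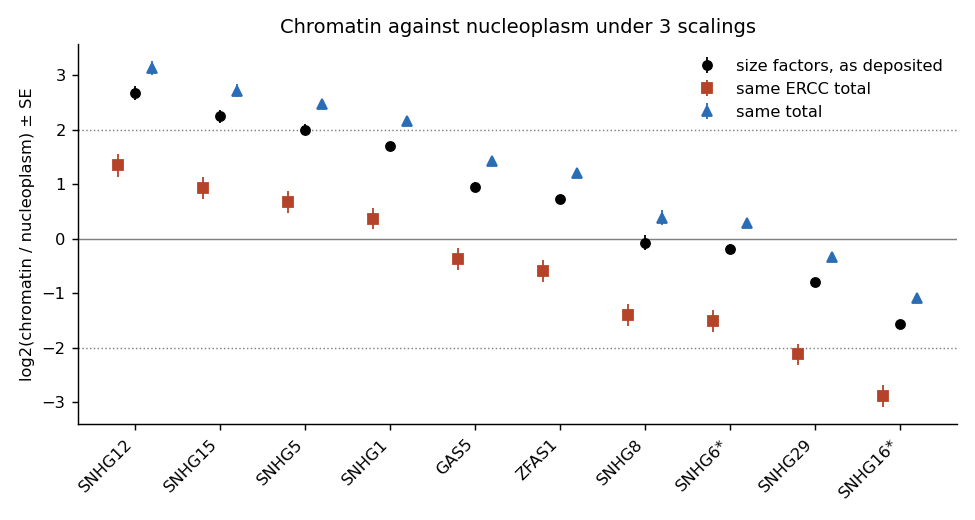
Log2 fold change of chromatin over nucleoplasm for each host with its standard error, under the size factors as deposited, the same ERCC total and the same total count; dotted lines mark 4-fold and an asterisk marks a row named by position. The ERCC scaling places GAS5 at -0.37 and ZFAS1 at -0.59, while SNHG12 stays above 0 in all 3.

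Levels between hosts were compared per kb of the union of annotated exons. In chromatin the order was SNHG1 (5581 ± 443 normalized counts per kb, SD, n = 3), GAS5 (4078 ± 468), SNHG29 (2570 ± 227), SNHG6 (1599 ± 171), ZFAS1 (1435 ± 109), SNHG16 (1137 ± 88.4), SNHG12 (1092 ± 226), SNHG8 (876 ± 190), SNHG15 (790 ± 123) and SNHG5 (572 ± 84.1). The library ranges of SNHG6 and ZFAS1 overlapped, as did those of each neighbouring pair from SNHG16 to SNHG15. In nucleoplasm the first places were taken by SNHG29 (4469 ± 100.1) and SNHG16 (3347 ± 87.7), and the lowest by SNHG12 (170 ± 6.42), SNHG15 (166 ± 18.5) and SNHG5 (142 ± 6.60), whose neighbouring ranges overlapped. The exon unions ran from 2527 bases in SNHG6 to 12604 in SNHG5, so a gene with many rare annotated exons has a lower value on this scale, and the rows of SNHG6 and SNHG16 do not share the span of the exons they were divided by.

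The spans of the 10 hosts hold 38 annotated snoRNA genes in RefSeq or GENCODE, but in the short-read table only SNORD99, inside SNHG12, had a row of its own. SNORD99, a box C/D snoRNA, had 51.2, 46.8 and 68.1 normalized counts in chromatin and 19.3, 14.6 and 19.4 in nucleoplasm, from 17 to 62 reads per library. The fractions did not overlap, and in a limma fit without a minimum span the log2 fold change was 1.58 (SE 0.20, adjusted p = 8.6e-05 in limma), beside 2.66 for its host in the same fit. Reads in the SNORD99 row can come from the unspliced host, which shares the bases, and the difference between the 2 rows was not tested. SNORD99 was not past 4-fold, and 21.4% of the 26489 genes in that fit were called in chromatin.

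In the long-read table, 24 of these snoRNA genes had a GENCODE entry. The sequences below are the 4 with the highest mean TPM and SNORD99, from GENCODE release 44 transcripts on hg38. Capitals mark box C (NTGATGA with A or G first, or else TGATGA alone, within the first 20 bases) and box D (CTGA starting in the last 16 bases) on the transcribed strand. Both were found in 12 of the 18 box C/D snoRNAs of the hosts and in 62.3% of the 313 box C/D snoRNA transcripts in GENCODE. SNORD99 had a match to box D alone.
SNORD12C, inside ZFAS1, chr20:49278940-49279028, plus strand: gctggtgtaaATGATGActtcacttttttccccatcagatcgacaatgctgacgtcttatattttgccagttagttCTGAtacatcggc
SNORD12B, inside ZFAS1, chr20:49280319-49280409, plus strand: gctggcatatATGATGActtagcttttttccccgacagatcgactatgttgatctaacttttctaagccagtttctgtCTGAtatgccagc
SNORD1B, inside SNHG16, chr17:76561109-76561192, plus strand: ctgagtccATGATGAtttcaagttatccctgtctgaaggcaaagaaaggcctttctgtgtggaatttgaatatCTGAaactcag
SNORD25, inside SNHG1, chr11:62855564-62855632, minus strand: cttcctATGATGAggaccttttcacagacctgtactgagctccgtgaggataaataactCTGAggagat
SNORD99, inside SNHG12, chr1:28578749-28578822, minus strand: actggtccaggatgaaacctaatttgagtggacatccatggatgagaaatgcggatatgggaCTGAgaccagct

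SNORD12C had 54.3 and 15.5 TPM in the 2 long-read libraries, SNORD12B 2.70 and 7.51, SNORD1B 5.56 and 1.59, and SNORD25 0.66 and 1.14. The other listed snoRNA transcripts of the hosts averaged under 1 TPM, SNORD99 at 0.05. TPM is divided by transcript length, and none of these values separates a free snoRNA from an unspliced host molecule.

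Next, the long-read isoforms were compared by whether an annotated exon spanned a whole snoRNA gene, as in an unspliced or intron-retaining form. In 4 hosts, SNHG1, GAS5, SNHG16 and SNHG12, over 95% of the TPM of annotated isoforms in both libraries lay in isoforms of this kind. For GAS5 the leading isoform, GAS5-230, had 127 and 63.2 TPM, and 10 of the 11 snoRNAs lay within its 2 exons. SNHG1 totalled 104 and 99.1 TPM, but the leading isoform changed between libraries. SNHG1-231, with all 9 snoRNAs in its 2 exons, had 75.6 and 8.79 TPM, and SNHG1-248, a single exon of 1158 bases at the 3′ end that holds SNORD22, had 12.9 and 75.3. For SNHG16, SNHG16-201 led with 32.1 and 17.7 TPM and held 1 snoRNA. The annotated isoforms of SNHG16 totalled 37.9 and 24.4 TPM. All transcripts of its strand within the span, apart from snoRNA transcripts, totalled 62.7 and 57.0 TPM, so its share leaves part of that signal out. SNHG12-201 led SNHG12 with 7.54 and 2.41 TPM and held 2 of 4.

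**Figure D3:**
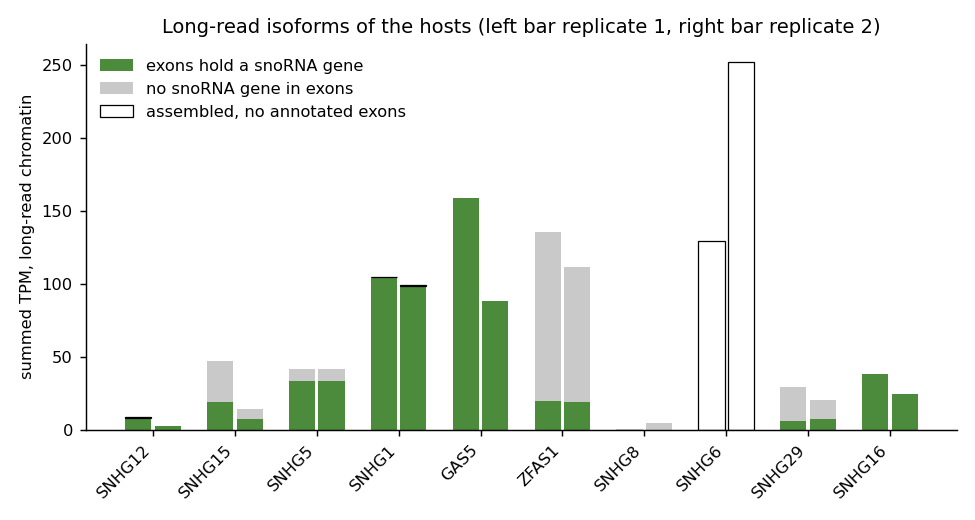
Summed TPM of each host in the 2 long-read chromatin libraries, split into isoforms whose annotated exons hold a snoRNA gene, isoforms whose exons hold none, and assembled isoforms with no annotated exons. SNHG1 and GAS5 are made up almost wholly of isoforms that hold a snoRNA, and ZFAS1 mostly of isoforms that hold none.

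In SNHG5 isoforms holding a snoRNA had 79.4% and 81.3% of the TPM of annotated isoforms, led by SNHG5-250 at 13.5 and 12.6 TPM. The share was 40.0% and 53.4% in SNHG15, where the leading isoform SNHG15-214 (27.3 and 6.63 TPM) held none. SNHG29 had 19.1% and 37.4%, and its leading isoform on average, SNHG29-229, had 18.4 TPM in 1 library and was listed at 0 in the other. The isoforms of SNHG29 totalled 29.1 and 20.3 TPM, beside 40.8 and 30.7 for all transcripts of its strand within the span, apart from snoRNA transcripts. ZFAS1 had 14.7% and 17.0%, and its 2 main isoforms, ZFAS1-214 (60.7 and 41.4 TPM) and ZFAS1-202 (49.1 and 45.3 TPM), held no snoRNA in their exons. In SNHG8 no TPM was assigned to an isoform with a snoRNA exon, but this host totalled only 0.15 and 4.41 TPM, led by SNHG8-207 (0 and 4.34), and 37.4 and 25.9 TPM when every transcript of its strand within the span was added, most of it from an identifier absent from GENCODE release 44. SNHG6 was represented by 2 assembled isoforms with no annotated exons, the larger at 103 and 197 TPM.

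Across the 9 hosts with annotated isoforms, the share of TPM in isoforms holding a snoRNA and the short-read log2 fold change had a Pearson r of 0.27 and a Spearman rho of 0.15. Without SNHG16, whose row was named by position, r was 0.66 and rho 0.54 over 8 hosts. Both sets include SNHG8, whose share of 0% rests on isoforms totalling only 0.15 and 4.41 TPM. These points share their libraries, and the long-read shares come from chromatin alone. Isoform TPM was assigned by the assembler with the annotation as a guide, so it does not show the intron content of single reads.

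The long-read totals, summed over isoforms, put SNHG6 first (129 and 252 TPM), followed by GAS5 (159 and 88.0), ZFAS1 (135 and 111) and SNHG1 (104 and 99.1). SNHG5 had 41.7 and 41.2, SNHG16 37.9 and 24.4, SNHG15 47.0 and 14.2, SNHG29 29.1 and 20.3, and SNHG12 8.93 and 2.62. The library ranges overlapped from SNHG6 to ZFAS1, from SNHG16 to SNHG29, and between SNHG12 and SNHG8. SNHG29 ranked 3 per kb in short-read chromatin and 8 in long reads. Over the 10 hosts the short-read chromatin level per kb and the long-read TPM had a Pearson r of 0.48 on a log2 scale and a Spearman rho of 0.49. Of the 65 isoforms, 43 were above 0 in both long-read libraries. TPM keeps no depth, so the counting error behind these values is unknown.

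Strand was compared next, since the long-read cDNA protocol does not keep it and the short-read protocol does. Within the spans of 8 of the 10 hosts, long-read transcripts on the opposite strand carried TPM, and none of these was a reference transcript. The opposite-strand share was 53.3% and 53.2% in SNHG1, 55.4% and 47.7% in SNHG29, 40.5% and 57.9% in SNHG15, 39.5% and 51.6% in ZFAS1 and 28.6% and 53.8% in GAS5. It was 31.2% and 33.8% in SNHG16, 24.1% and 18.4% in SNHG5 and 29.0% and 7.69% in SNHG6. SNHG8 and SNHG12 had no such transcript wholly within the span. At SNHG8, however, opposite-strand transcripts of 91.5 and 3.44 TPM on average reached only 3 bases outside it. The share there was 77.4% and 70.3% when transcripts with at least 50% of their length in the span were counted. That rule gave 81.6% and 83.5% in SNHG29, 64.6% and 60.6% in SNHG1 and 27.9% and 47.8% in GAS5, and left the other hosts unchanged. The short-read rows were counted by the 50% rule. Only SNHG16, GAS5 and SNHG29 had such a row on the opposite strand, with at most 1.45%, 0.706% and 0.789% of the normalized counts in any library.

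**Figure D4:**
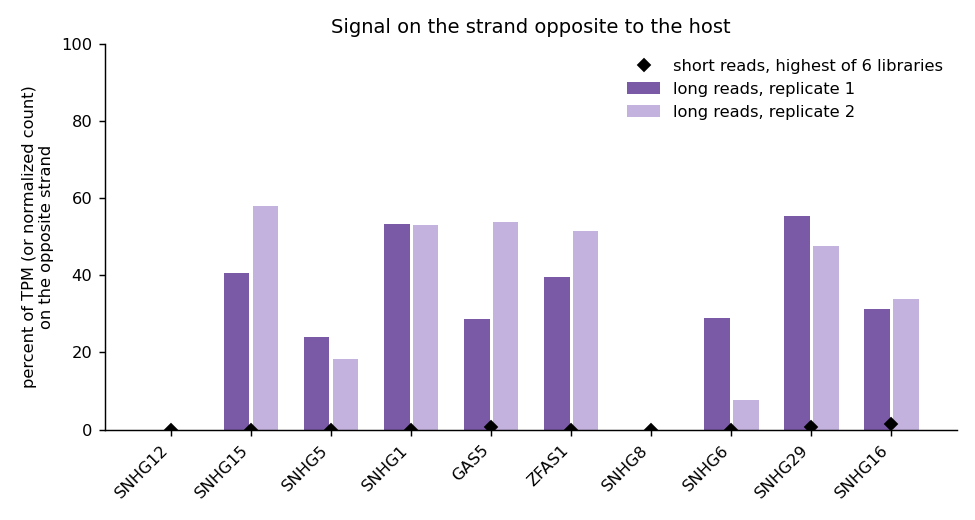
Percent of long-read TPM on the strand opposite to each host in the 2 chromatin libraries (bars) and the highest percent of normalized counts on that strand in any of the 6 short-read libraries (diamonds). The bars reach 57.9% in SNHG15, and no diamond exceeds 1.45%. Bars count transcripts wholly within the span, which leaves out those at SNHG8 that reach 3 bases outside it.

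The median opposite-strand share of the 10 hosts, both libraries together, was 36.3%, with SNHG8 at 0% since only transcripts wholly within the span were counted. It was 21.4% (quartiles 0.13% and 43.4%) over 739 other multi-exon lncRNA genes at 10 TPM or more and 21.1% over 7367 protein-coding genes. The hosts were not tested against these genes. Of 30 assembled opposite-strand transcripts at a mean of at least 1 TPM, 17 had an end within 10 bases of an annotated host start and 15 within 10 bases of an annotated host end. One of them at SNHG1, with 99.7 and 78.7 TPM, ran from 62851988 to 62855863 on chromosome 11, with its ends 4 bases from an annotated host start and 0 bases from an annotated host end. At ZFAS1, an opposite-strand transcript of 50.9 and 149 TPM lay 4 and 0 bases from an annotated start and end. Distances were taken to the nearest annotated start or end of a host, and SNHG1 has 80 annotated isoforms and GAS5 91. Some of the 30 transcripts run beyond the host span, by 3 bases at SNHG8 and by up to 11944 bases at SNHG29. No such counts are given for other genes or positions, so whether the counts of 17 and 15 are high was not tested. The upper coordinate of 48.6% of reference transcripts in the long-read table lay beyond the annotated one, by a median of 89 bases, so upper ends of assembled transcripts carry that uncertainty.

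The starts of hosts with a pyrimidine run of at least 7 letters are shown here, beside the transcript ends just described. Each window, from RefSeq promoters on GRCh38.p14, runs from 10 bases before to 20 bases from the RefSeq gene start on the transcribed strand. Capitals mark the longest unbroken run of C and T.
SNHG1, chr11:62855866-62855895, minus strand: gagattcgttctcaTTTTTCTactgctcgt
SNHG12, chr1:28581854-28581883, minus strand: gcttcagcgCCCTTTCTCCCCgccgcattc
SNHG16, chr17:76557754-76557783, plus strand: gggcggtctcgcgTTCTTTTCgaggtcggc
ZFAS1, chr20:49278632-49278661, plus strand: gccattcgTTCTTTCgcgtctgcggtgccc

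The run in SNHG12 had 12 letters, and 2.51% of 35116 RefSeq promoters held a run at least that long in the same window. The runs had 8 letters in SNHG16 (12.7% of promoters) and 7 in SNHG1 and ZFAS1 (19.3%). SNHG5, SNHG8 and SNHG29 had runs of 6 (30.4% of promoters). The window of GAS5 is not described, since its RefSeq start lies outside the GENCODE gene and upstream of the isoforms measured here. These windows follow 1 RefSeq start per gene, and no match says only that the letters are not in the window.

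Other loci inside the hosts were few. An unnamed locus inside SNHG29 (chr17:16447012-16456038, plus strand) had 1493, 1805 and 1642 normalized counts in chromatin and 119, 85.2 and 118 in nucleoplasm. It was far higher in chromatin in every library, with a log2 fold change of 3.94 (SE 0.14, adjusted p = 2.5e-08 in limma), whereas SNHG29 itself was at -0.80. A second locus in SNHG29 (chr17:16474917-16476129) averaged 97.5 and 44.8 (log2 fold change 1.11, limma adjusted p = 2.3e-04, and -0.20 at the same ERCC total). In SNHG16, ENSG00000267078 averaged 19.7 in chromatin and 2.02 in nucleoplasm (2.84, limma adjusted p = 1.4e-04), an unnamed locus averaged 34.6 and 21.1 (0.71, limma adjusted p = 0.12), and RNU6-227P was listed at 0. So 2 of the 4 tested loci were called in chromatin, beside 21.2% of all tested genes. Of these 2, ENSG00000267078 rested on 1 to 22 reads per library. It entered the fit on its chromatin values alone, since every nucleoplasm library lay below the minimum count. The filter thus selected this row by the fraction in which it was called, and the count of 2 includes it.

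Of the hosts, 3 start within 1000 bases of a protein-coding gene on the other strand. ZBTB37, a zinc finger gene whose start lies 87 bases from a GAS5 start, had 8356, 9172 and 8030 normalized counts in chromatin and 1677, 1772 and 1625 in nucleoplasm. It was called in chromatin at 2.33 (SE 0.06, adjusted p = 1.1e-08 in limma), beside 0.95 for GAS5. SLC3A2, an amino acid transporter subunit 51 bases from SNHG1, averaged 10955 and 21002 (log2 fold change -0.94, limma adjusted p = 5.9e-07), the other direction from SNHG1. ZNFX1, 113 bases from ZFAS1, averaged 1741 and 1754 (-0.01, limma adjusted p = 0.87). It was at -1.33 at the same ERCC total and 0.45 at the same total, both at a limma adjusted p under 0.05. The differences within each pair were not tested.

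Of 22 other snoRNA host lncRNA genes, 14 were tested. In these, 9 were higher in chromatin and 3 in nucleoplasm at any fold (beside 44.2% and 45.2% of all tested genes), 2 did not pass, and the median log2 fold change was 1.04 beside -0.02 for all tested genes. SNHG17 (2.28) and SNHG22 (2.13) were the 2 called in chromatin, beside 21.2% of all tested genes, and SNHG10 was at 1.87. SNHG19 (-1.19), SNHG7 (-0.49) and SNHG30 (-0.46) were lowest, of which SNHG30 was at 0.00084 and SNHG7 at -0.026 at the same total.

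Of 217 tested protein-coding genes that hold a snoRNA, 62 were higher in chromatin and 129 in nucleoplasm (beside 44.2% and 45.2% of all tested genes), with a median of -0.45. TIMM23B-AGAP6 (2.71) and CEP295 (2.54), a centriole gene, were highest, and the ribosomal protein gene RPL39 (-2.79) was lowest. Past 4-fold, 5 of them were called on the chromatin side and 22 on the nucleoplasm side, beside 21.2% and 8.47% of all tested genes. At the same ERCC total the median was -1.78 and at the same total 0.01.

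Of 7 tested genes for the core proteins that package snoRNAs, 2 were higher in chromatin and 5 in nucleoplasm (median -1.86), beside 44.2% and 45.2% of all tested genes. NOP56 (0.95) and NOP58 (0.77), core proteins of box C/D snoRNPs, were higher in chromatin, at the same ERCC total at -0.37 and -0.55, and NHP2 (-2.67), a core protein of H/ACA snoRNPs, and SNU13 (-2.46), which binds the C/D motif, were called in nucleoplasm. Of 10 assembly factors, 1 was higher in chromatin, 8 in nucleoplasm and 1 did not pass (median -0.71), beside the same 2 shares, with NAF1 (1.07, and -0.26 at the same ERCC total) and ZNHIT3 (-0.06, limma adjusted p = 0.34, and 0.41 at the same total) at the top and RUVBL2 (-2.11) and NOLC1 (-1.73) at the bottom.

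Of 7 tested nonsense-mediated decay genes, 3 were higher in chromatin and 4 in nucleoplasm (median -0.21), beside 44.2% and 45.2% of all tested genes, from UPF3A (1.44) and SMG9 (0.53, and -0.80 at the same ERCC total) to UPF1 (-1.31), the central helicase. The median of these genes was -1.53 at the same ERCC total and 0.26 at the same total. Of 6 debranching and trimming enzymes, 5 were higher in nucleoplasm, beside 45.2% of all tested genes, and 1 did not pass (median -0.54). PARN (-0.96), a deadenylase, and DBR1 (-0.85), the lariat debranching enzyme, were lowest, and EXOSC10 (-0.10, limma adjusted p = 0.068) and XRN1 (-0.27) highest. At the same total EXOSC10 was at 0.37 and XRN1 at 0.19, both higher in chromatin at a limma adjusted p under 0.05.

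Among 12248 other tested genes with a symbol and on average 100 normalized counts or more, the profile over the 6 libraries nearest to the median profile of the 10 hosts was that of P2RY1 (Euclidean distance 0.10 in centred log2 values), followed by UFD1-AS1 (0.11), DYRK2 (0.12), ALX1 (0.14) and ARFGAP1 (0.14). Their log2 fold changes ran from 0.80 in DYRK2 to 0.85 in ALX1, beside a median of 0.84 over the 10 hosts. These genes were picked by nearness to that profile in the same libraries, so their closeness to the median follows from the choice. The hosts themselves ran from -1.56 to 2.66, and the median includes the rows named by position.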

How the data were processed

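The authors aligned short reads to hg38 with HISAT2 2.1.0, assembled and quantified them with StringTie, and deposited a normalized signal for each gene, its read count over the library's DESeq2 size factor. Long reads were aligned with minimap2 and assembled with StringTie, and the authors deposited TPM per transcript, with replicates kept apart. Whether that table precedes their strand assignment is not stated.

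Dividing by the value of 1 read gave whole numbers for 100% of short-read values (tolerance 0.001). These numbers, called recovered reads here, are the gene counts that the authors obtained from the abundance re-estimated by StringTie. Genes were named with GENCODE release 44. A gene entered the fit with 10 normalized counts or more in 3 libraries or more and over 200 bases of span. The fit used limma 3.58.1 (mean-variance trend, R 4.3.3) on log2(normalized count + 1), which understates the change of low genes, with Benjamini-Hochberg adjustment. Alternatives were count models (edgeR 4.0.16, DESeq2 1.42.0) on the recovered reads, different pseudocounts, filters and scalings, a replicate block and leaving out each library. Adding the rows named by position was chosen after seeing the data. The fit was tested on simulated data. Genes named were all hosts, and by fold or level the first of each list: the 3 highest and 3 lowest other host lncRNAs, the 2 highest and 2 lowest of each other list, the leading isoform per host, every partner and inner locus, and the 5 nearest profiles. Some genes this rule selects are not reported here. The members and lists were chosen with earlier results of these data known. The labels call the short-read libraries 3 independent cultures but do not say which chromatin and nucleoplasm libraries share one. Start windows came from RefSeq promoters, which matched 8 hosts, and snoRNA sequences from GENCODE transcripts. Authors' fold changes were not used.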

Additional observations from a re-analysis of the deposited data

How the results depend on the processing

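At the same ERCC total, limma called 0 of the 8 hosts in chromatin and 1 in nucleoplasm, beside 11.9% and 34.4% of all tested genes. At any fold 3 were higher in each fraction, beside 22.7% in chromatin and 64.8% in nucleoplasm. SNHG16, outside these counts, was at -2.88. The same setting left 1 other locus inside the hosts called. Of the 14 tested other host lncRNAs, it called 0 in chromatin (beside 11.9%) and 1 in nucleoplasm (beside 34.4%). For the 217 tested host protein-coding genes these counts were 0 and 86. On the nucleoplasm side it called 5 of 10 assembly factors, 1 of 7 decay factors and 2 of 6 trimming enzymes, beside the same 34.4%. Whether any list differs from all tested genes was not tested. At the same total, 4 hosts, 5 other host lncRNAs and 12 host protein-coding genes were called in chromatin, beside 25.6% of all tested genes. That scaling called 4 host protein-coding genes and 0 assembly factors in nucleoplasm, where the share of all tested genes is not reported here. SNORD99 then became the 1 called snoRNA gene. A fold minimum of 2 gave 4 hosts in chromatin, beside 32.2% of all tested genes. Adding SNHG6 and SNHG16 gave 3 hosts higher in nucleoplasm by limma, with SNHG6 at the p limit. The fold change of SNHG6 reversed to 0.28 at the same total. That of SNHG8 reversed to 0.39 at the same total, 0.035 with DESeq2 and 0.085 without chromatin replicate 2 (range over the libraries left out -0.23 to 0.085). GAS5 and ZFAS1 reversed to -0.37 and -0.59 at the same ERCC total. Counting long-read transcripts with at least 50% of their length in the span moved the opposite-strand share over all hosts from 37.8% to 48.4%, and leaving out length moved the correlation of short-read and long-read levels from 0.48 to 0.34. Why these values moved was not tested, apart from the scalings, which shift all genes together. Leaving out each library gave 2 to 3 hosts called in chromatin, beside 21.2% of all tested genes in the fit with every library.

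With the replicate number as a block, 2 hosts were called in chromatin, as without it, where 21.2% of all tested genes were called. The block changed no other call on the hosts or lists. The correlations of same-numbered chromatin and nucleoplasm libraries, as deviations from the fraction mean, were 0.087, 0.053 and 0.063. Those of differently numbered libraries ran from -0.075 to 0.013, so each library correlated best with its own number. The labels do not state the pairs, so the main fit used none, and these small correlations do not settle whether same-numbered libraries share a culture.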
